A study of Mus musculus with 10 samples.

Results

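Transcripts of 9 inhibitory genes were followed in mouse CD8+ T cells that had been co-cultured with tumor cells with or without sodium acetate (NaAc). They were chosen by name, as the genes of the inhibitory receptors PD-1 (Pdcd1), CTLA-4 (Ctla4), LAG-3 (Lag3), TIM-3 (Havcr2), TIGIT (Tigit), CD160 (Cd160) and BTLA (Btla) and of the surface nucleotidases CD39 (Entpd1) and CD73 (Nt5e), and all 9 were found among 57825 listed genes. The T cells were isolated magnetically from spleens of female Balb/c mice aged 7 to 8 weeks, activated for 12 h on plate-bound anti-CD3 with anti-CD28 and IL-2, kept for 24 h with or without 5 mM NaAc, and co-cultured for 48 h with 4T1 cells, a mouse mammary carcinoma line. RNA of purified CD8+ T cells was sequenced. The 5 samples without acetate form the group CD8+4T1 and 5 samples with acetate the group CD8+4T1+NaAc (labels: day 3), so both groups share the strain, the activation and the contact with tumor cells. Neither the labels nor the methods say whether the samples of a group came from separate animals or cultures, and the p-values measure the spread between these samples, which may be technical.

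Inhibitory receptors are induced on T cells by antigen receptor signalling and dampen it again when they meet their ligands on tumor or antigen-presenting cells. PD-1 and BTLA recruit phosphatases to the synapse, CTLA-4 competes with the co-stimulatory receptor CD28 for CD80 and CD86, TIGIT competes with CD226 for the poliovirus receptor family, and BTLA and CD160 share the ligand HVEM. CD39 and CD73 act in sequence outside the cell, CD39 turning ATP into AMP and CD73 turning AMP into adenosine, which quiets T cells through the receptor encoded by Adora2a. Several of these genes stay high together in exhausted CD8+ T cells of tumors, and several also mark recent activation.

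Levels are given as FPKM, in which the fragments of a gene are divided by its length and by the size of the library, so that they can be compared between genes. The values refer to between 16306447 and 18853726 fragments per sample. The share of these fragments that fell in listed genes was 95.5 to 97.9% in the CD8+4T1 samples and 89.8 to 92.1% in the CD8+4T1+NaAc samples, without overlap. Groups were compared with limma on log2(FPKM + 0.1) over the 15710 genes that averaged at least 0.5 FPKM, and a gene was called where its p, adjusted by Benjamini-Hochberg, was under 0.05. For low genes the added 0.1 makes the fold change appear smaller than it is. The 14 CD8 T cell markers were all present, with Cd8a at 78.6 ± 2.34 FPKM (SD, n = 5) in CD8+4T1 and 76.5 ± 4.37 in CD8+4T1+NaAc. Of these 14 markers 2 were called higher and 6 lower with NaAc, beside 17.6 and 19.0% of all genes tested. Markers of 4T1 and epithelial cells were present as well and higher with NaAc, from 29.7 to 42.3 summed FPKM over 20 genes in CD8+4T1 and from 104.4 to 235.2 in CD8+4T1+NaAc. In bulk RNA a change in the number of cells of a type and a change in RNA per cell cannot be told apart.

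Of the 9 genes, 2 rose and 3 fell with NaAc, and 4 did not pass the test. Havcr2 and Nt5e rose, while Btla, Tigit and Pdcd1 fell. Once the samples were rescaled to the same total, Tigit and Pdcd1 were not called and Lag3 was called higher. In the fit to FPKM as deposited, 36.5% of all genes were called in either direction, 17.6% higher and 19.0% lower. The values of the 5 called genes did not overlap between the groups, which held for 26.4% of all genes tested. The median log2 fold change of the 9 genes was 0.06 and that of all genes tested −0.02. All 9 passed the filter on low values.

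**Figure D1:**
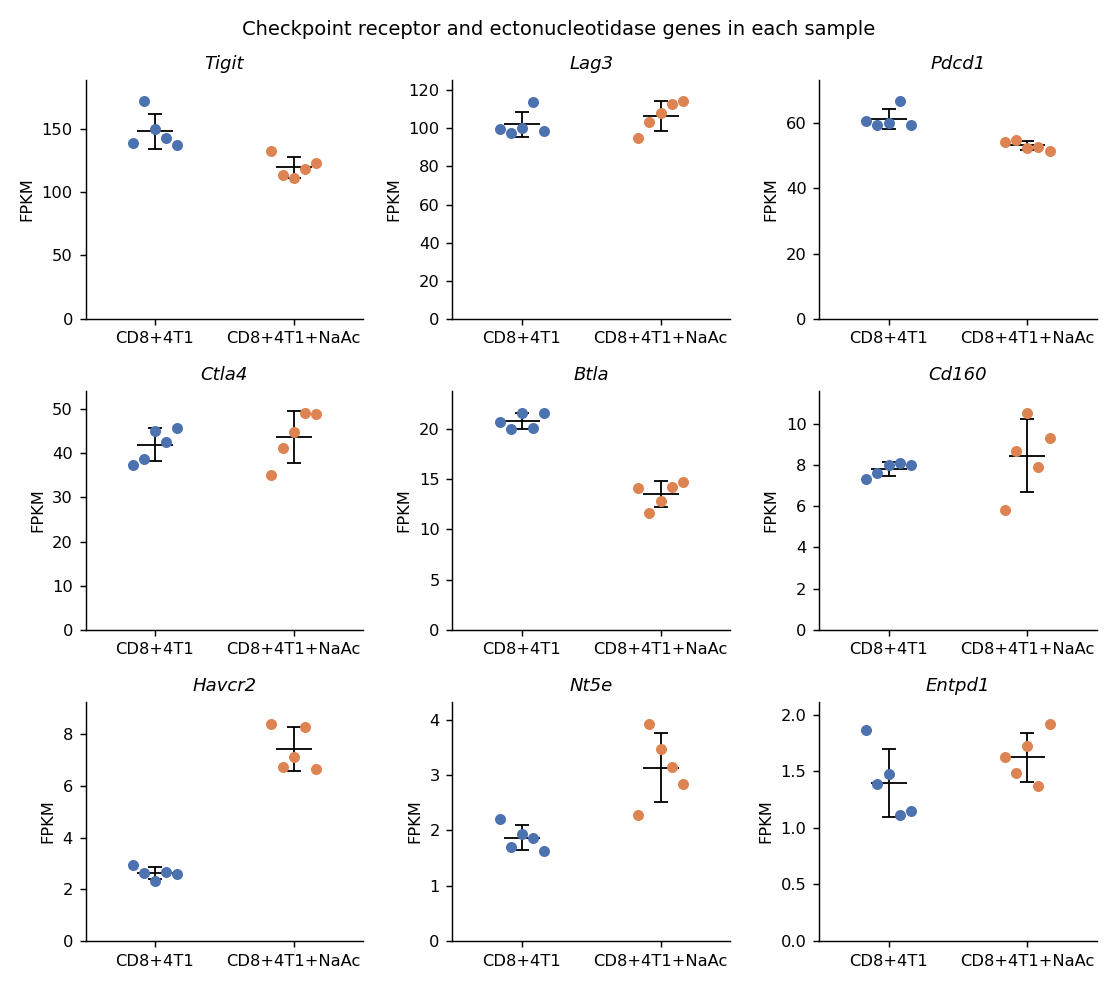
FPKM (y axis, from 0, own scale for each gene) of the 9 genes in CD8+4T1 (blue) and CD8+4T1+NaAc (orange). Points are samples, replicates 1 to 5 from left to right, and bars are mean ± SD (n = 5). The groups separate for Havcr2, Nt5e, Btla, Tigit and Pdcd1, and Cd160 spreads from 5.80 to 10.5 FPKM with NaAc.

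Of the 9 genes, that of TIM-3 changed most. Havcr2 stood at 2.95, 2.61, 2.32, 2.65 and 2.61 FPKM in CD8+4T1 replicates 1 to 5 and at 8.40, 6.73, 7.13, 8.28 and 6.64 FPKM in the CD8+4T1+NaAc replicates. The lowest sample with NaAc was thus above the highest without it by a wide margin, and these levels rest on 103 to 134 and 300 to 391 fragments per sample. The mean went from 2.63 ± 0.222 to 7.43 ± 0.849 FPKM (SD, n = 5), which is a difference of 1.46 on the log2 scale (SE 0.0911, 95% interval 1.26 to 1.66, limma adjusted p = 9.05e-06). A rise of more than 1 on the log2 scale was called for 4.87% of all genes. Over the 10 samples the genes most like Havcr2 among 7052 protein-coding genes that averaged at least 5 FPKM were Plxnd1 (Pearson r = 0.99), which encodes a semaphorin receptor, Dusp10 (r = 0.99), which encodes a MAP kinase phosphatase, and Ptprf (r = 0.985), which encodes a receptor phosphatase. The 10 points form 2 groups, so these correlations mostly carry the difference between groups. In the deposited table Havcr2 (ENSMUSG00000020399) lies on the plus strand of chromosome 11 from 46345762 to 46372082.

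Ligands described for TIM-3 moved in both directions. Ceacam1, a cell adhesion receptor that also binds TIM-3, rose from 0.438 ± 0.106 to 1.01 ± 0.131 FPKM (log2 fold change 1.06, SE 0.213, limma adjusted p = 0.00288). Lgals9, the galectin first described as a TIM-3 ligand, went from 29.4 ± 1.12 to 35.9 ± 4.74 FPKM and passed the test (0.28, SE 0.0883, adjusted p = 0.0307), but kept its call in only 3 of 10 fits that left out 1 sample each. Hmgb1, a nuclear protein that TIM-3 can bind once released, fell from 10.6 ± 0.802 to 7.88 ± 0.303 FPKM (−0.42, SE 0.0612, adjusted p = 4.00e-04). It was named after its values had been seen.

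BTLA showed the largest fall. Btla was at 20.7, 20.02, 21.7, 20.1 and 21.6 FPKM in CD8+4T1 and at 14.1, 11.7, 12.8, 14.2 and 14.8 FPKM in CD8+4T1+NaAc. Samples within a group lay close together and the groups were well apart. The mean fell from 20.8 ± 0.795 to 13.5 ± 1.26 FPKM (log2 fold change −0.62, SE 0.0665, 95% interval −0.77 to −0.48, limma adjusted p = 7.34e-05), on 1123 to 1211 and 720 to 833 fragments. Btla (ENSMUSG00000052013) is listed on chromosome 16, plus strand, from 45044678 to 45078033.

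Cd160, the other receptor for HVEM, did not follow it. Its values were 7.32, 7.62, 7.98, 8.11 and 8.005 FPKM in CD8+4T1 and 5.80, 8.69, 10.5, 7.90 and 9.30 FPKM in CD8+4T1+NaAc. The samples with NaAc surrounded the tight range of those without, and replicate 1 with NaAc was the lowest of all 10. The means were 7.81 ± 0.331 and 8.45 ± 1.77 FPKM (log2 fold change 0.09, SE 0.132, 95% interval −0.21 to 0.38, limma adjusted p = 0.647). Without replicate 1 of CD8+4T1+NaAc the log2 fold change was 0.21 and just passed the test (adjusted p = 0.0493). Tnfrsf14, which encodes the shared ligand HVEM, went from 16.9 ± 2.00 to 13.8 ± 1.24 FPKM (−0.29, SE 0.0911, adjusted p = 0.0284), a call made in 13 of 23 alternative fits. Cd160 (ENSMUSG00000038304; chromosome 3, 96706079 to 96736667, minus strand) overlaps Pdzk1 on the other strand, which was listed at a mean of 0.205 FPKM.

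Promoter windows show what lies upstream of the genes with the largest rise and the largest fall. RefSeq windows of 250 bases before to 50 bases after a start were found for 8 of the 9 genes in GRCm38.p6, 10 windows in all. The 250 bases before the start of Havcr2 (chr11:46454681-46454930, plus strand) and of Btla (chr16:45224087-45224336, plus strand) are given from 5′ to 3′, with capitals for TGANTCA, the core of an AP-1 site, and TGTGGT, the core of a RUNX site (ACCACA on the other strand).
Havcr2: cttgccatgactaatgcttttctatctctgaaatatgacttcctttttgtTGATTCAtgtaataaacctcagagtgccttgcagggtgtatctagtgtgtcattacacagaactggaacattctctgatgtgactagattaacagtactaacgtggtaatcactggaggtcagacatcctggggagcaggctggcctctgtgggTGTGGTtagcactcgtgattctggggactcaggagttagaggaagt
Btla: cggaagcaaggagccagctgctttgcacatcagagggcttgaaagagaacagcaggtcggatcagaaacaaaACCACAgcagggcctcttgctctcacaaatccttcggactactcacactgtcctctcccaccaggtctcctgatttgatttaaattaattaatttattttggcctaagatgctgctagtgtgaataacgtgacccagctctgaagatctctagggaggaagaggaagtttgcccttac
In Havcr2 the AP-1 core begins 200 bases and the RUNX core 46 bases before the start, and in Btla the RUNX core begins 178 bases before it. Searched on both strands, TGANTCA was in 7.81% and TGTGGT in 16.8% of all 32851 windows of the same 300 bases. The cores of an NFAT site (TGGAAA, in 21.4% of all windows) and of a T-box site (GGTGTGA, in 3.98%) were searched as well and are not in the windows of Havcr2 and Btla, while Ctla4 holds the former and 1 of 2 windows of Cd160 the latter. Among the windows of the other genes, those of Tigit and Cd160 and 1 of 2 of Entpd1 hold TGTGGT, and no other than that of Havcr2 holds TGANTCA. Havcr2 and Btla moved in opposite directions and both hold the RUNX letters, and these matches are a description of the sequence and not of binding.

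PD-1 transcripts fell slightly in the deposited scale. Pdcd1 was at 60.6, 59.4, 60.1, 66.7 and 59.4 FPKM in CD8+4T1 and at 54.3, 54.96, 52.5, 52.8 and 51.4 FPKM in CD8+4T1+NaAc. Every sample with NaAc was below every sample without, and replicate 4 of CD8+4T1 stood above the rest of its group. The mean went from 61.3 ± 3.09 to 53.2 ± 1.43 FPKM (log2 fold change −0.20, SE 0.0452, 95% interval −0.30 to −0.10, limma adjusted p = 0.00521). Pdcd1 was not called after rescaling to the same total (−0.03, adjusted p = 0.706) or to the CD8 T cell markers (−0.07, adjusted p = 0.468). It kept its call under median-ratio scaling (−0.22, adjusted p = 0.00349). The gene (ENSMUSG00000026285) is listed on chromosome 1, minus strand, from 93966027 to 93980278. Both ligand genes of PD-1 fell in the same RNA. Cd274, which encodes PD-L1, went from 66.3, 72.8, 70.9, 62.8 and 72.6 FPKM in CD8+4T1 to 53.3, 50.01, 57.2, 56.6 and 51.0 FPKM with NaAc (−0.36, SE 0.0591, adjusted p = 0.000785). Pdcd1lg2, which encodes PD-L2, fell from 20.6 ± 2.22 to 14.5 ± 0.846 FPKM (−0.50, SE 0.0737, adjusted p = 0.000457). Ptpn6, the phosphatase SHP-1 that inhibitory receptors recruit, fell from 125.2 ± 4.05 to 94.7 ± 2.22 FPKM (−0.40, SE 0.0411, adjusted p = 5.91e-05). Ptpn11, which encodes the phosphatase SHP-2, did not follow, at 27.2 ± 0.790 and 26.1 ± 1.33 FPKM (−0.06, SE 0.0461, adjusted p = 0.341). It was called in 0 of 23 alternative fits.

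TIGIT had the highest transcript level of the 9 genes in both groups. Tigit was at 139.1, 171.7, 149.7, 142.5 and 137.6 FPKM in CD8+4T1 and at 132.2, 113.7, 110.9, 118.0 and 122.8 FPKM in CD8+4T1+NaAc. The groups lay next to each other, with replicate 1 with NaAc only a little below the lowest sample without. The mean fell from 148.1 ± 14.0 to 119.5 ± 8.41 FPKM (log2 fold change −0.31, SE 0.0727, 95% interval −0.47 to −0.15, limma adjusted p = 0.00713). Tigit was not called after rescaling to the same total (−0.13, adjusted p = 0.196) or to the CD8 T cell markers (−0.17, adjusted p = 0.175). It kept its call under median-ratio scaling (−0.32, adjusted p = 0.00542). Tigit (ENSMUSG00000071552) is listed on chromosome 16, minus strand, from 43469230 to 43484509.

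Partners of TIGIT did not move together. Nectin2, which encodes a ligand of TIGIT and CD226, rose from 1.75 ± 0.180 to 4.39 ± 1.05 FPKM (log2 fold change 1.24, SE 0.170, limma adjusted p = 0.000288). Pvr, the high-affinity ligand CD155, was at 11.4 ± 0.714 and 11.7 ± 0.988 FPKM (0.03, SE 0.0695, adjusted p = 0.741). Pvr was called higher after rescaling to the same total (0.21, adjusted p = 0.042). It was not called after scaling to the CD8 T cell markers (0.17, adjusted p = 0.202). Cd226, the co-stimulatory rival of TIGIT, went from 11.8 ± 1.01 to 9.73 ± 1.16 FPKM (−0.28, SE 0.0918, adjusted p = 0.0362), a call made in 11 of 23 alternative fits. Cd96, which encodes another receptor for CD155, was at 43.0 ± 2.15 and 45.2 ± 5.21 FPKM (adjusted p = 0.547).

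CTLA-4 and LAG-3 did not pass the test in the deposited scale. Ctla4 was at 37.5, 38.8, 45.2, 42.7 and 45.6 FPKM in CD8+4T1 and at 34.99, 41.2, 44.8, 49.2 and 48.8 FPKM in CD8+4T1+NaAc. The ranges overlapped almost fully, with means of 41.9 ± 3.70 and 43.8 ± 5.92 FPKM (log2 fold change 0.06, SE 0.0986, 95% interval −0.16 to 0.27, limma adjusted p = 0.696). Lag3, whose product binds MHC class II, was at 99.9, 97.6, 100.4, 114.0 and 98.6 FPKM in CD8+4T1 and at 94.9, 103.6, 108.2, 113.0 and 114.2 FPKM in CD8+4T1+NaAc. Its means of 102.1 ± 6.76 and 106.8 ± 7.87 FPKM differed by 0.06 on the log2 scale (SE 0.0649, 95% interval −0.08 to 0.21, adjusted p = 0.480). By these intervals a small change of either gene in either direction could go undetected. Rescaled to the same total, Lag3 was called higher (0.24, adjusted p = 0.00963) and Ctla4 was not called (0.23, adjusted p = 0.066). Scaled to the CD8 T cell markers, Lag3 was again called higher (0.20, adjusted p = 0.0122) and Ctla4 was not called (0.19, adjusted p = 0.0512). Ctla4 (ENSMUSG00000026011) is listed on chromosome 1, plus strand, from 60926159 to 60954991, and Lag3 (ENSMUSG00000030124) on chromosome 6, minus strand, from 124881324 to 124888668.

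Among the partners of CTLA-4, Cd80 fell from 40.7 ± 2.64 to 30.1 ± 2.23 FPKM (log2 fold change −0.44, SE 0.0641, limma adjusted p = 0.000436). Cd86 was too low to be tested, with 0.216 to 0.369 FPKM in CD8+4T1 and 0.464 to 0.724 FPKM in CD8+4T1+NaAc. Cd28, which competes for both ligands, was at 61.2 ± 3.28 and 63.6 ± 6.56 FPKM (0.05, SE 0.0749, adjusted p = 0.630). Icos, a co-stimulatory receptor of the CD28 family, fell from 77.0 ± 12.4 to 50.4 ± 5.10 FPKM (−0.60, SE 0.108, adjusted p = 0.00141). Lrba, which protects CTLA-4 from lysosomal breakdown, rose from 2.83 ± 0.194 to 3.55 ± 0.318 FPKM (0.32, SE 0.0840, adjusted p = 0.0130). Of the genes listed as ligands of LAG-3, Lgals3, a galectin, rose from 27.5 ± 5.26 to 51.5 ± 12.2 FPKM (0.89, SE 0.180, adjusted p = 0.00304), and Fgl1, a secreted fibrinogen-like protein gene, was at 0 in 9 of 10 samples.

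Of the 2 nucleotidases, CD73 rose. Nt5e was at 2.199, 1.71, 1.94, 1.86 and 1.63 FPKM in CD8+4T1 and at 2.28, 3.93, 3.47, 3.14 and 2.84 FPKM in CD8+4T1+NaAc. The groups barely cleared each other, since replicate 1 with NaAc was just above replicate 1 without it, and the other 4 samples with NaAc were well above. The mean went from 1.87 ± 0.223 to 3.13 ± 0.626 FPKM (log2 fold change 0.70, SE 0.144, 95% interval 0.38 to 1.02, limma adjusted p = 0.00326), on 231 to 316 and 335 to 637 fragments. Entpd1, which encodes CD39, was the lowest of the 9 genes, at 1.87, 1.39, 1.47, 1.11 and 1.15 FPKM in CD8+4T1 and 1.62, 1.48, 1.73, 1.37 and 1.92 FPKM in CD8+4T1+NaAc. These values overlapped, with means of 1.40 ± 0.304 and 1.62 ± 0.215 FPKM (0.22, SE 0.156, 95% interval −0.13 to 0.56, adjusted p = 0.308), on 102 to 178 fragments per sample. Nt5e (ENSMUSG00000032420) is listed on chromosome 9, plus strand, from 88209250 to 88254145, and Entpd1 (ENSMUSG00000048120) on chromosome 19, plus strand, from 40600810 to 40730046, where 4 other entries overlap it with means of up to 0.989 FPKM.

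On the adenosine side of the pathway, Adora2a, the main adenosine receptor of T cells, fell from 46.4 ± 2.04 to 38.1 ± 2.23 FPKM (log2 fold change −0.28, SE 0.0517, limma adjusted p = 0.00157), and lost its call after rescaling to the same total (−0.11, adjusted p = 0.144). Adora2b, the lower-affinity receptor, was at 1.83 ± 0.427 and 2.41 ± 0.791 FPKM (0.35, SE 0.225, adjusted p = 0.254). The genes that remove adenosine gave small differences, 0.11 for the deaminase gene Ada (adjusted p = 0.326), 0.03 for the kinase gene Adk (adjusted p = 0.764) and 0.02 for Dpp4 (adjusted p = 0.844), whose product CD26 anchors adenosine deaminase in humans. P2rx7, an ATP-gated channel, was at 2.45 ± 0.0887 and 2.26 ± 0.137 FPKM (−0.11, SE 0.0763, adjusted p = 0.294). Cd38, an ectoenzyme that consumes NAD, rose from 0.616 ± 0.205 to 1.36 ± 0.421 FPKM (1.04, SE 0.265, adjusted p = 0.0107). Slc29a2, a nucleoside transporter, rose from 1.11 ± 0.197 to 1.80 ± 0.528 FPKM (0.63, SE 0.185, adjusted p = 0.0217), and just missed the threshold without CD8+4T1 replicate 3 (adjusted p = 0.0539). Panx1, a channel that releases ATP, fell from 12.6 ± 0.802 to 8.84 ± 0.457 FPKM (−0.51, SE 0.0585, adjusted p = 1.07e-04). In all, of 26 further genes listed for the purinergic pathway 19 could be tested, of which 2 rose and 2 fell, where 17.6% of all genes tested rose and 19.0% fell. Rescaled to the same total, 6 of the 19 were called higher and 1 lower, beside 4900 and 1387 of all 15710 genes tested. Ada, Enpp1, Entpd5 and Slc29a1 gained a call and Adora2a lost it.

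The order of the transcript levels was the same in both groups: Tigit, Lag3, Pdcd1, Ctla4, Btla, Cd160, Havcr2, Nt5e and Entpd1. In CD8+4T1 neighbours in this order had separate ranges except Nt5e and Entpd1, and each order held in 5 of 5 samples. In CD8+4T1+NaAc the ranges of Tigit and Lag3 overlapped, and those of Cd160 and Havcr2 did too, with Cd160 above Havcr2 in only 3 of 5 samples. Ratios taken within a sample do not depend on how samples are scaled. Havcr2 was 0.107 to 0.142 of Btla in CD8+4T1 and 0.449 to 0.596 with NaAc, and 0.0386 to 0.0486 of Pdcd1 without and 0.122 to 0.157 with NaAc. Havcr2 rose while Btla and Pdcd1 fell, each without overlap, so these ratios had to separate the groups and only describe them. The sum of the 7 receptor genes does depend on it. In the deposited scale it was 368.1 to 397.8 FPKM in CD8+4T1 and 340.5 to 367.9 FPKM in CD8+4T1+NaAc, but with all samples rescaled to the same total, a choice made after seeing the data, it was 351.0 to 373.2 and 354.5 to 391.3 FPKM, with overlap and the higher mean in CD8+4T1+NaAc (362.4 and 375.9 FPKM). Within that sum the share of Havcr2 went from 0.599 to 0.801% up to 1.80 to 2.44%, that of Btla from 5.03 to 5.79% down to 3.42 to 4.09%, and those of Tigit, Lag3, Pdcd1, Ctla4 and Cd160 overlapped between the groups. Nt5e over Entpd1 was 1.18 to 1.68 without and 1.40 to 2.65 with NaAc, with overlap.

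How the samples are scaled decided the calls of 3 genes. Rescaling all samples to the same total FPKM moved the median difference over all genes, on the log2 scale, from −0.02 to 0.15, and scaling to the CD8 T cell markers moved it to 0.11. Of all called genes 48.1% were higher with NaAc in the deposited scale, 77.9% after rescaling to the same total and 73.8% after scaling to the T cell markers. Havcr2, Nt5e and Btla kept their direction and their call under both. Pdcd1 lost its call, at −0.03 (limma adjusted p = 0.706) with the same total and −0.07 (adjusted p = 0.468) with the T cell markers. Tigit lost its call too, at −0.13 (adjusted p = 0.196) and −0.17 (adjusted p = 0.175). Lag3 was called higher, at 0.24 (adjusted p = 0.00963) and 0.20 (adjusted p = 0.0122). Median-ratio scaling, also tried, gave these genes the same calls as the deposited scale. There Pdcd1 was at −0.22 (adjusted p = 0.00349), Tigit at −0.32 (adjusted p = 0.00542) and Lag3 at 0.05 (adjusted p = 0.620). Relative to the median of all genes, which takes out such a shift by construction, the deposited scale gave −0.19 for Pdcd1, −0.29 for Tigit, 0.08 for Lag3, 1.48 for Havcr2 and −0.61 for Btla.

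**Figure D2:**
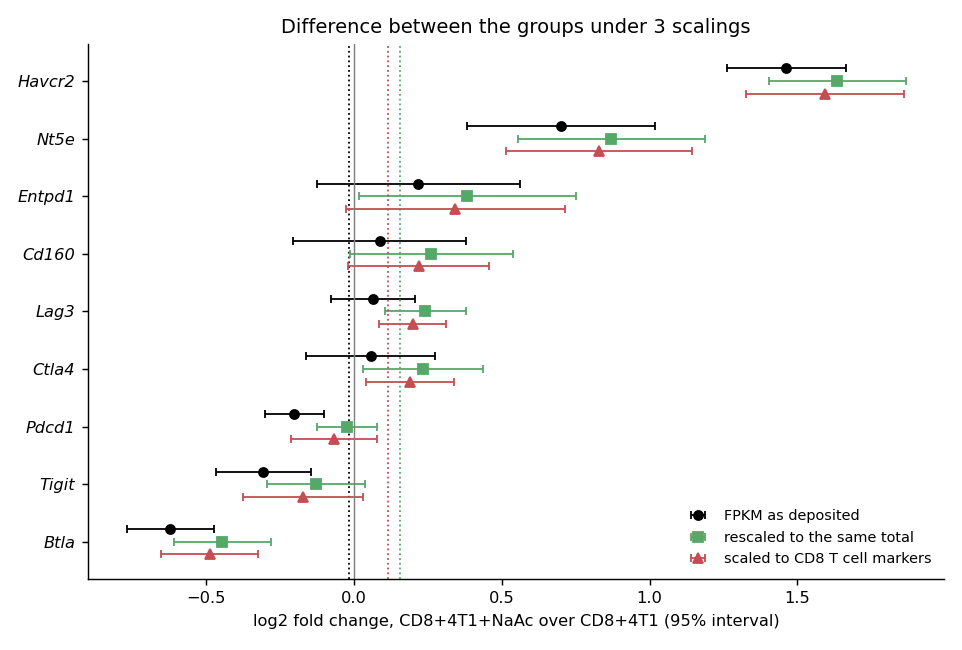
log2 fold change of CD8+4T1+NaAc over CD8+4T1 (x axis) with its 95% interval for the 9 genes, from FPKM as deposited (black), rescaled to the same total (green) and scaled to CD8 T cell markers (red). Dotted lines are the medians of all genes tested, at −0.02, 0.15 and 0.11. Havcr2 and Nt5e stay above and Btla below 0 in all 3, while the intervals of Pdcd1 and Tigit reach 0 after rescaling.

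The lists of related genes held called genes of both directions, beside 17.6% of all genes called higher and 19.0% called lower. Of 13 checkpoint ligands 10 were tested, of which 4 rose and 5 fell (median log2 fold change −0.13). Of 14 counterpart receptors and signalling partners 12 were tested, of which 1 rose and 4 fell (median −0.03) in the deposited scale. With the same total the calls were 4 higher and 2 lower, beside 4900 higher and 1387 lower among all 15710 genes tested. With the T cell markers they were 2 higher and 2 lower, beside 4031 higher and 1432 lower among all genes tested. With the same total Cd28 (adjusted p = 0.0430), Cd96 (0.0246) and Csk (0.00794) gained a limma call. Among the genes that fell was Grb2, an adaptor, whose values overlapped (84.7 to 97.4 FPKM against 56.2 to 102.0) and which kept its call in 11 of 23 alternative fits. Of 14 genes of other inhibitory receptors and of ligands of such receptors, Cd200 and Cd47 among the ligands, 11 were tested. In the deposited scale 5 of them rose and 3 fell (median 0.17). The calls were 7 higher and 2 lower with the same total, and 6 higher and 2 lower with the T cell markers. The counts of all genes under each rescaling are those given above. Lair1 gained a call under both rescalings and Cd101 with the same total alone. Klrc1, which encodes NKG2A, rose from 22.3 ± 5.36 to 37.8 ± 5.50 FPKM (limma adjusted p = 0.00252), and Siglecf, a sialic acid receptor, from 0.691 ± 0.151 to 1.31 ± 0.308 FPKM (adjusted p = 0.00934). Lilrb4a, an inhibitory receptor of the Ig family, fell from 17.7 ± 2.16 to 10.7 ± 1.45 FPKM (adjusted p = 0.000514), and Cd200, the ligand of the inhibitory receptor CD200R, from 40.6 ± 0.999 to 25.9 ± 2.54 FPKM (adjusted p = 6.46e-05). Under both rescalings Tnfrsf14, Cd226, Grb2, Cd5, Adora2a, Foxo1, Nr4a1 and Batf lost their calls. Of the 5 lists, 12 instead of 20 genes were then called lower. More of the listed genes were called higher than in the deposited scale, and the calls of all genes tested shifted the same way.

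Of 23 tested regulators known to act on checkpoint genes 8 rose and 6 fell in the deposited scale (median 0.06). Of all genes the same 17.6% rose and 19.0% fell. With the same total the calls became 10 higher and 3 lower, beside 4900 higher and 1387 lower among all 15710 genes tested. With the T cell markers they became 9 higher and 3 lower, beside 4031 higher and 1432 lower among all genes tested. Prdm1 gained a call under both rescalings and Tox with the same total alone. Ahr, the aryl hydrocarbon receptor, rose from 0.356 ± 0.0589 to 1.51 ± 0.445 FPKM (log2 fold change 1.77, SE 0.247, limma adjusted p = 0.000326). Bcl6, a repressor that sustains less differentiated T cells, rose from 1.26 ± 0.186 to 4.06 ± 0.579 FPKM (1.62, SE 0.130, adjusted p = 2.01e-05). Id3, an inhibitor of E proteins, rose from 6.82 ± 0.880 to 17.5 ± 3.55 FPKM (1.33, SE 0.142, adjusted p = 7.30e-05). Egr3, which is induced by antigen receptor signalling, fell from 7.70 ± 0.999 to 3.93 ± 0.623 FPKM (−0.96, SE 0.127, adjusted p = 0.000245).

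**Figure D3:**
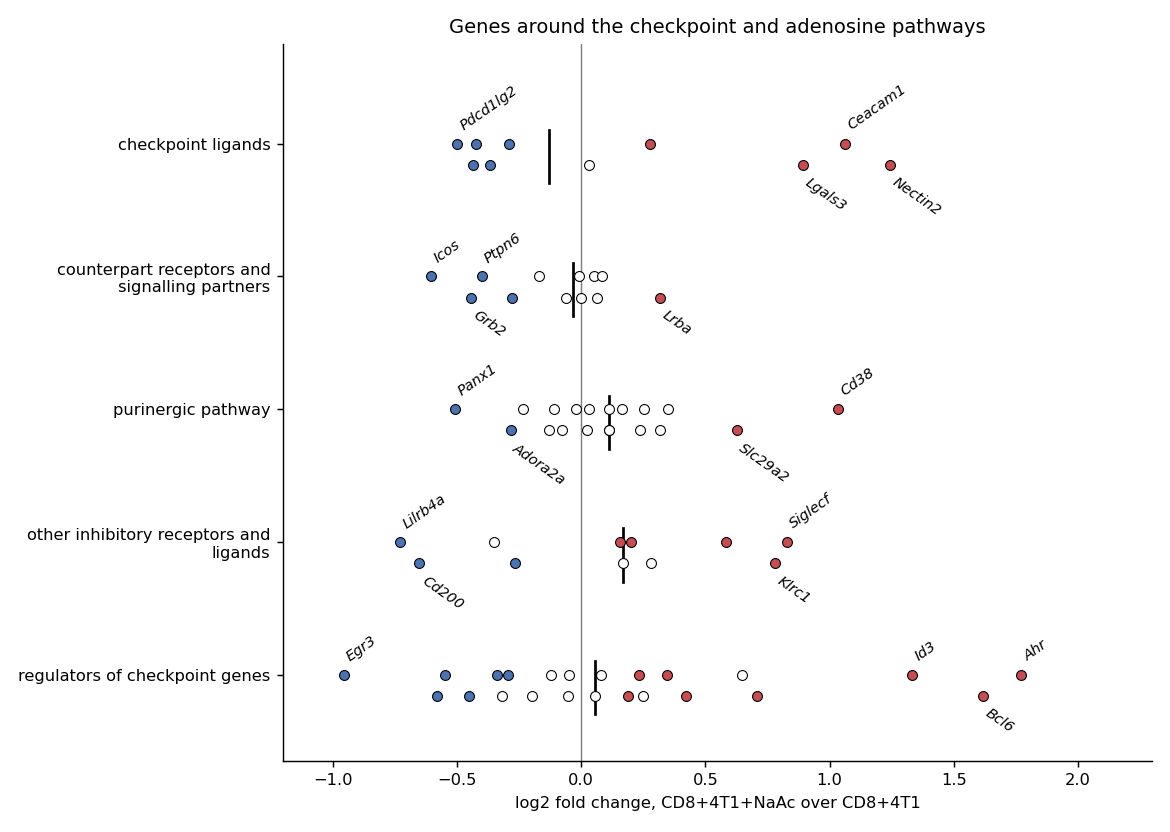
log2 fold change (x axis) of every tested gene of 5 lists of related genes (rows), from FPKM as deposited. Red points were called higher and blue points lower with NaAc at a limma adjusted p under 0.05, white points were not called, small vertical shifts only separate points, and black ticks are list medians, from −0.13 to 0.17. Names mark up to 4 called genes per list with the largest change, Ahr at 1.77 and Egr3 at −0.96 among them. Grb2 and Adora2a lose their calls under both rescalings.

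The signal of 4T1 and epithelial genes differed between the groups in the same direction as Havcr2, Nt5e and Nectin2. Of the 20 genes 13 were tested, of which 8 rose and 0 fell in the limma fit (median log2 fold change 2.63), beside 17.6% of all genes called higher and 19.0% called lower. Krt8, an epithelial keratin, rose from 3.42 ± 1.69 to 34.2 ± 13.1 FPKM (3.33, SE 0.352, adjusted p = 8.10e-05), whereas Epcam was at 0.519 ± 0.229 and 0.699 ± 0.179 FPKM (adjusted p = 0.305). Summed over the list, CD8+4T1+NaAc replicates 1 to 5 held 116.8, 235.2, 151.4, 179.5 and 104.4 FPKM. Havcr2 was at 8.40, 6.73, 7.13, 8.28 and 6.64 FPKM in these samples, high in replicates 1 and 4, which had the second lowest and second highest sums, and low in replicates 2 and 5, which had the highest and the lowest. Nt5e was highest in replicate 2 (3.93 FPKM) and lowest in replicates 1 and 5 (2.28 and 2.84 FPKM), which had the lowest sums. Nectin2 was also highest in replicate 2 (5.59 FPKM) and lowest in replicate 5 (2.69 FPKM). Lgals3 was higher in replicates 2 and 4 (60.0 and 66.7 FPKM) than in replicates 1 and 5 (43.5 and 36.5 FPKM). In CD8+4T1, where the sums ran from 29.7 to 42.3 FPKM, Nt5e was highest in the sample with the lowest sum (2.199 FPKM, replicate 1) and lowest in the one with the highest (1.63 FPKM, replicate 5). Nectin2 was there highest in replicates 4 and 5 (2.01 and 1.82 FPKM), which had the highest sums (40.8 and 42.3 FPKM). The part of tumor cell RNA in these results was not tested.

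**Figure D4:**
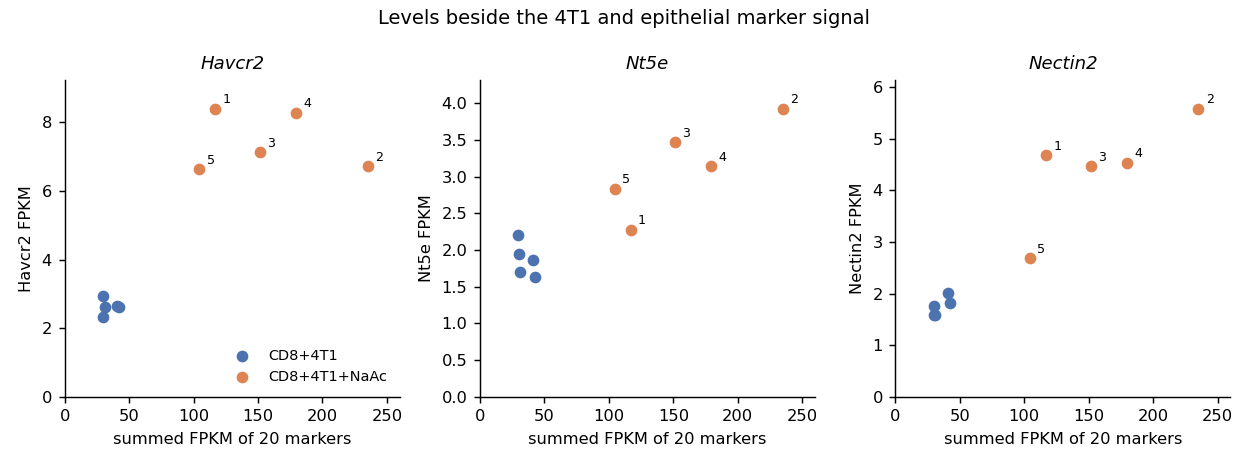
FPKM of Havcr2, Nt5e and Nectin2 (y axes, from 0) against the summed FPKM of 20 markers of 4T1 and epithelial cells (x axis) in each sample, CD8+4T1 in blue and CD8+4T1+NaAc in orange with the replicate number. With NaAc, Nt5e and Nectin2 are highest in replicate 2, which has the highest sum of 235.2 FPKM, while Havcr2 is high in replicates 1 and 4 (sums of 116.8 and 179.5 FPKM) and low in replicates 2 and 5 (235.2 and 104.4 FPKM).

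Lists of markers of other immune cells held both silent and expressed genes. The summed level of 14 myeloid and dendritic cell genes was 29.1 to 38.7 FPKM without and 31.7 to 36.4 FPKM with NaAc, most of it from Cd68, a lysosomal protein gene (25.8 ± 2.97 and 22.8 ± 1.73 FPKM, limma adjusted p = 0.133). Of 6 tested myeloid genes 2 rose and 0 fell, where 17.6% of all genes tested rose and 19.0% fell. S100a8, a calprotectin subunit gene, went from 0.398 ± 0.318 to 2.94 ± 1.13 FPKM (log2 fold change 2.86, SE 0.530, adjusted p = 0.00181), and Lyz2, a lysozyme gene, from 0.536 ± 0.270 to 1.12 ± 0.385 FPKM (0.96, SE 0.313, adjusted p = 0.0328), while S100a9 was listed at 0 in all samples and Csf1r, Adgre1, Itgam, Flt3 and Xcr1 had means of at most 0.227 FPKM. Cd14 (3.21 ± 0.899 and 3.89 ± 1.01 FPKM), Zbtb46 (1.92 ± 0.339 and 1.75 ± 0.200) and Itgax (1.05 ± 0.218 and 1.11 ± 0.227) were expressed and not called. The 6 NK cell genes summed to 0.674 to 1.36 FPKM and 1.70 to 2.57 FPKM, without overlap, a separation that rests on Itga2. Itga2, an integrin gene, rose from 0.230 ± 0.107 to 1.38 ± 0.331 FPKM (2.20, SE 0.300, adjusted p = 0.000294), and its values of 1.26, 1.73, 1.28, 1.68 and 0.929 FPKM in CD8+4T1+NaAc replicates 1 to 5 had the same order as the summed 4T1 and epithelial markers. Of the other NK cell genes, Fcer1g was expressed and not called (0.633 ± 0.221 and 0.624 ± 0.383 FPKM, adjusted p = 0.812). Ncr1, Klrb1c and Klra8 had means of at most 0.0932 FPKM, and Klra4 was listed at 0. The 6 B cell genes summed to 3.96 to 4.91 FPKM and 4.68 to 6.27 FPKM, mostly Cd79b (3.58 ± 0.654 and 4.64 ± 0.905 FPKM, adjusted p = 0.120). The 6 regulatory and CD4 T cell genes summed to 220.0 to 237.6 FPKM and 179.1 to 205.3 FPKM, mostly Il2ra, the IL-2 receptor gene of activated T cells, which fell (−0.30, SE 0.0538, adjusted p = 0.00157). Cd4 rose from 0.541 ± 0.169 to 1.60 ± 0.187 FPKM (1.44, SE 0.200, adjusted p = 0.000317), and Foxp3 was at means of 0.221 and 0.179 FPKM. These genes of other cell types were named after their values had been seen. Of the CD8 T cell markers, Cd3e fell from 33.8 ± 1.07 to 26.3 ± 2.06 FPKM (limma adjusted p = 0.000608), and of all 14 of them 2 rose and 6 fell, beside 17.6 and 19.0% of all genes tested. The part of these cell types and of the T cell marker level in the results was not tested.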

How the data were processed

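The authors trimmed reads with fastp, aligned them with HISAT2 2.0.5, assembled them with StringTie 1.3.3b (versions as in the submitters' processing notes and methods), counted with featureCounts 1.5.0-p3 and deposited FPKM for each gene and sample, not pooled, beside gene position and length (an other, unscaled column, in bases). The genome build, annotation and strand setting are not given in the sources used here. Positions are printed as deposited. For 0 of the 9 genes they equal those in GRCm38, the build of the RefSeq promoter windows. FPKM multiplied by length are whole multiples of 1 step per sample for 100% of values (within 0.1), and divided by that step they give fragments.

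As FPKM are not counts, log2(FPKM + 0.1) was compared with limma 3.58.1 (R 4.3.3; trend, robust) over genes averaging at least 0.5 FPKM, with Benjamini-Hochberg adjustment, after tests on simulated data. Figures used matplotlib 3.10.9. The 9 genes and all lists were chosen with earlier results of these data known. Beside the 9 genes, the text names up to 4 called genes per list with the largest change. Also named are direct partners of the 9 gene products, 4 marker genes and the 3 genes most like Havcr2. Hmgb1, Ptpn11, genes of other cell types and genes named for calls lost or gained under rescaling were added after their values were seen. The alternatives were pseudocounts of 1 and 0.01, no filter, a mean of at least 5 FPKM, 3 other scalings, plain moderation, sample weights, a replicate block, voom on the fragments, protein-coding genes alone and leaving out samples.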

Additional observations from a re-analysis of the deposited data

Results flagged for a closer look

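Of 26 sets of 5 values checked, 3 held a sample that stood apart from the other 4, by a gap of more than 0.71 of the whole range, and about 1.3 would be expected by chance. In CD8+4T1, replicate 4 was the highest for Pdcd1 (66.7 FPKM, a gap of 0.829 of the range on the log2 scale). The same sample was the highest for Lag3 (114.0 FPKM, 0.817 of the range). Without it the log2 fold change of Pdcd1 was −0.17 (limma adjusted p = 0.0104) and that of Lag3 0.10 (adjusted p = 0.228). In CD8+4T1+NaAc, replicate 2 had the most fragments (18853726, 0.747 of the range), and without it the log2 fold change of Havcr2 was 1.496 (adjusted p = 3.94e-05) and that of Nt5e 0.62 (adjusted p = 0.00787).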

How the results depend on the processing

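Havcr2 (log2 fold change 1.21 to 1.64) and Btla (−0.66 to −0.45) passed the limma test in all 23 alternatives and Nt5e (0.52 to 0.87) in all 22 in which it was tested. Tigit passed in 21 and Pdcd1 in 20 of 23, Lag3 in 2, Cd160 in 1, and Ctla4 and Entpd1 in 0 (lowest adjusted p 0.0512 and 0.0893). Rescaled to the same total, Pdcd1 was at −0.02518, Tigit at −0.1298 and Lag3 at 0.2411, and scaled to the CD8 T cell markers at −0.06816, −0.1728 and 0.1981. With voom on the fragments Pdcd1 was at −0.1088 (adjusted p = 0.132). Both rescalings left 1 of the 9 genes called lower. Of the 5 lists, 32 and 24 genes were called higher and 12 and 12 lower, against 20 and 20. Among all 15710 genes tested, 4900 and 4031 were called higher and 1387 and 1432 lower, against 2764 and 2978. Cd8a turned from −0.04 to 0.1369 with the same total. Requiring a mean of at least 5 FPKM left 3733 of 5742 genes called, 1 of the 9 genes called higher and 12 list genes higher, as fewer genes were tested. Leaving out 1 sample at a time gave Cd160 between 0.0003589 and 0.2134, and it was called in 1 of 10 such fits, without CD8+4T1+NaAc replicate 1. Between 4947 and 6965 genes were then called in all, the most without CD8+4T1+NaAc replicate 1. That sample had 20233 genes above 0, against 24681 to 25088 in the rest of its group. It also had the lowest share of fragments in listed genes (89.8%). The number of genes above 0 was not among the sets checked for samples that stood apart. Elsewhere the cause was not tested.

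The labels number the replicates of both groups 1 to 5. Same-numbered samples deviated together little (mean r = 0.0144), though 4 of the 10 samples were most like the sample of their own number. This does not settle whether they are pairs. As neither labels nor methods state a pairing, it was used only as an alternative. With a replicate block 5399 genes were called, and the same 5 of the 9 genes: Havcr2 at 1.46 (adjusted p = 5.94e-04), Btla at −0.62 (0.00117), Nt5e at 0.70 (0.0175), Pdcd1 at −0.20 (0.0192) and Tigit at −0.31 (0.0294). Entpd1, at 102 to 178 fragments per sample, and Havcr2 in CD8+4T1 rest on the fewest fragments.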
